A study of Homo sapiens with 2 samples.

Results

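The cluster of miRs made from the transcript MIR17HG on chromosome 13, which runs from miR-17 to miR-92a, and its paralog on chromosome X, the miR-106a-363 cluster, were examined in small RNA libraries of multidrug-resistant K562/ADM cells and parental K562 cells. A name was taken as a member when its stem, without the asterisk, arm and hairpin copy endings, was miR-17, miR-18a, miR-19a, miR-20a, miR-19b, miR-92a, miR-106a, miR-18b, miR-20b or miR-363. This gave 22 of the 934 names in the deposited table. Of these, 10 are guide strands, 7 are strands spelled miR with an asterisk, which marks the less abundant (star) strand of a hairpin, and 5 are spelled mir with an asterisk. The meaning of the lower-case spelling is not stated. For 4 of these 5 (all but mir-18b*) the table also lists a miR-spelled star strand of that hairpin, so the 5 were kept apart from the star strands.

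K562 is a human chronic myelogenous leukemia cell line. K562/ADM was derived from it by exposure to rising concentrations of adriamycin, an anthracycline that damages DNA, and was then kept in 1000 ng/mL of the drug, whereas K562 was grown without it. Whether K562/ADM is a single clone is not stated. Each cell line gave 1 library, so the comparison is between these libraries, and the derivation of the line, the drug present in the medium and chance differences between libraries cannot be told apart. The libraries held 6895193 reads on miR names in K562/ADM and 7677738 in K562. MiR-378 alone took 53.1% and 50.6% of these reads. Ratios of K562/ADM to K562 were formed after scaling each library by the median of ratios, and each carries a 95% interval that covers counting error only. With no replicates, no test of a difference between the cell lines was possible and no p-value is given.

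The blood identity of the cells was checked on known markers. All 6 blood and erythroid miRs (miR-142-3p, miR-142-5p, miR-223, miR-144, miR-451 and miR-486-5p) had reads in both libraries, from 1246 to 507475 in K562/ADM and from 1712 to 351692 in K562. The liver miR-122 had 4 reads in each library, the muscle miRs miR-1 and miR-133a together 23 in K562/ADM and 10 in K562, and the epithelial miR-200c and miR-141 together 806 and 951. Neural miR-9 had 17882 reads in K562/ADM and 7976 in K562, while neural miR-124 had 2 reads and 1 read. Mesenchymal miR-143 had 1279 and 204 reads and miR-145 had 6211 and 3045, so these markers were higher in K562/ADM (ratios 7.68 and 2.50). Neural miR-9 (2.75) and muscle miR-1, with few reads (2.69, 1.22 to 6.37), were higher too. The intervals of miR-200c (ratio 1.33) and miR-141 (1.02) held 1, and miR-122, miR-124 and miR-133a had at most 4 reads. The part of these markers in the results below was not tested.

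A polycistronic miR cluster is transcribed as a single primary transcript, from which Drosha cuts each hairpin and Dicer then releases a duplex. The guide strand of the duplex is kept in Argonaute and the star strand is mostly degraded. The MIR17HG cluster is a known target of MYC and is often amplified or raised in blood cancers. Its products fall into seed families. The miR-17 and miR-20a family is known for restraining cell cycle inhibitors and pro-apoptotic genes such as BIM, and miR-92a shares its seed with miR-25 and miR-32. The miR-106a-363 cluster arose from the same ancestor by duplication and is little expressed in many adult tissues.

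The mature sequences are shown because the seed (bases 2 to 8, in capitals) sets the families, and because the paralogs of the clusters differ by so few bases. They are RefSeq sequences, 5' to 3'. The guide strands of the miR-17 family, with miR-20 and miR-106a, share the seed AAAGUGC.
miR-17: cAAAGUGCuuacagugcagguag
miR-20a: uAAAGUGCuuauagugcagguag
miR-106a: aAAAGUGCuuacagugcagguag
miR-20b: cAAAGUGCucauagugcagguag
The miR-18 family has a seed that differs from it within the first bases.
miR-18a: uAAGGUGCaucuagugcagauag
miR-18b: uAAGGUGCaucuagugcaguuag
The miR-19 family and the miR-92a family, which includes miR-363, are cut from the 3' arm of their hairpins.
miR-19a: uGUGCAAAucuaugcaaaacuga
miR-19b: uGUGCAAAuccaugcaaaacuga
miR-92a: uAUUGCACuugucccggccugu
miR-363: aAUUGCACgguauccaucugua

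Counted from the 5' end, miR-17 and miR-106a differ by C1A alone, miR-18a and miR-18b by A20U alone, and miR-20a and miR-20b by U1C and U10C. MiR-19a and miR-19b differ by U11C. The hairpins MIR19B1 and MIR92A1 on chromosome 13 and MIR19B2 and MIR92A2 on chromosome X give identical guide strands, so the reads of miR-19b and miR-92a cannot be divided between the clusters, and the division of reads between the other near-identical pairs depends on the authors' mapping.

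By exact match to GRCh37, the mature strands of the MIR17HG cluster lie on the plus strand at chr13:92002872-92003636, a span of 765 nt within the lncRNA gene MIR17HG. The order is miR-17, miR-18a, miR-19a, miR-20a, miR-19b and miR-92a. Of the 11 annotated MIR17HG transcripts that cover these strands, 8 have them in an intron and 3 in an exon. The mature strands of the miR-106a-363 cluster that were matched lie on the minus strand at chrX:133303412-133304296, a span of 885 nt in exons of the lncRNA gene ENSG00000283638. Positions were not taken from the deposited table, which has none.

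The members took 4.76% of the reads in K562/ADM (95% interval 4.74 to 4.77, Clopper-Pearson) and 7.98% in K562 (7.96 to 8.0). Their summed ratio was 0.655 (0.652 to 0.658), but upper-quartile scaling put that of the MIR17HG names at 1.17 in place of 0.697. Of the member reads in K562/ADM and K562, the shared miR-19b and miR-92a held 23.1% and 27.7%. Names of the MIR17HG cluster alone held 76.9% and 72.3%. The 13 names made by that cluster alone had 252063 reads in K562/ADM and 443045 in K562, the shared miR-19b and miR-92a together had 75805 and 169906, and the 7 names made by the miR-106a-363 cluster alone had 28 and 43.

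**Figure D1:**
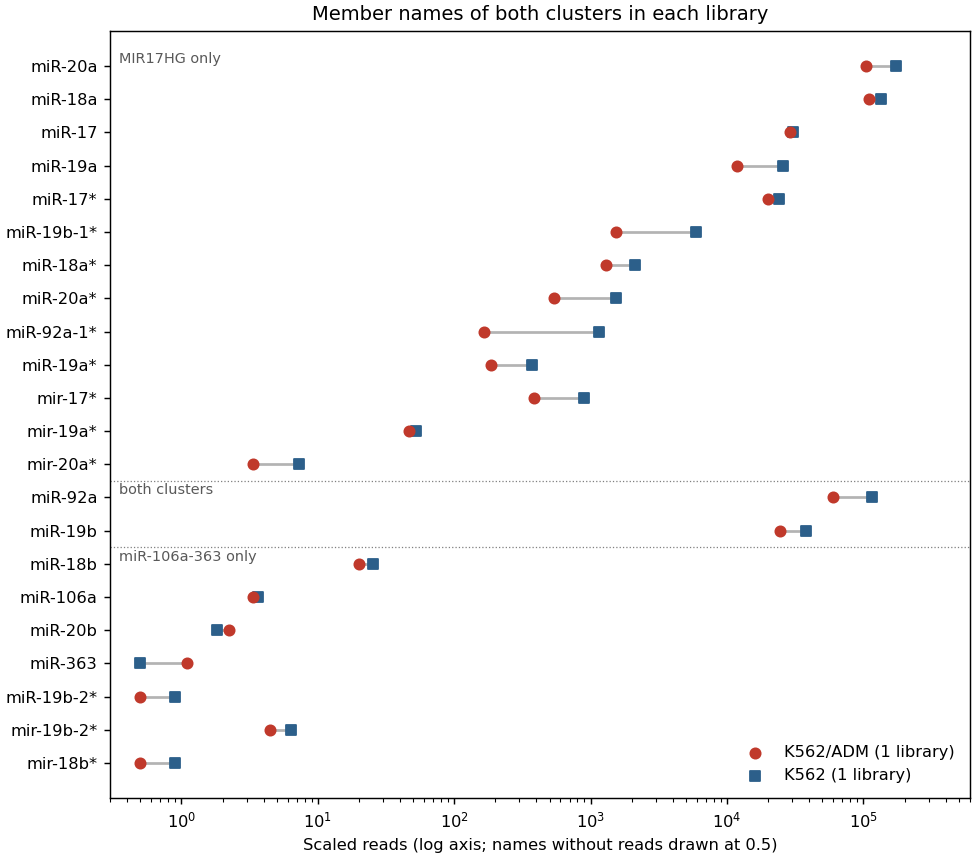
Scaled reads of the 22 member names (x axis, log scale) in K562/ADM (circles) and K562 (squares), 1 library each, with names that have no reads drawn at 0.5. The MIR17HG guide strands and the shared miR-92a and miR-19b have at least 11886 scaled reads in each library, and the names of miR-106a-363 alone at most 25.3.

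MiR-20a, the most abundant member in K562, had 93836 reads in K562/ADM and 192316 in K562, a ratio of 0.598 (0.593 to 0.602). MiR-18a had 99669 and 148945 reads and a ratio of 0.819 (0.813 to 0.826), so that it stood above miR-20a in K562/ADM and below it in K562. In the table as a whole miR-18a ranked 7 and 9, and miR-20a ranked 8 and 6. MiR-92a followed with 53679 and 128082 reads and a ratio of 0.513 (0.508 to 0.518).

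MiR-17, which names the cluster, had 26023 reads in K562/ADM and 33479 in K562. Its ratio of 0.952 (0.937 to 0.967) was the highest of the 6 abundant guide strands, and 1.59 (1.57 to 1.62) with upper-quartile scaling. MiR-19b had 22126 and 41824 reads and a ratio of 0.648 (0.637 to 0.659). MiR-19a was the least abundant of the 6, with 10741 and 28229 reads and a ratio of 0.466 (0.456 to 0.476). With scaling by the median of ratios it was the only guide strand called lower, and total-count scaling also called miR-92a (0.467). The order of levels therefore differed between the libraries, since miR-17 stood above miR-19b in K562/ADM and below it in K562. The intervals of the shares of neighbouring members did not overlap in either library, and these strands are of similar length (22 or 23 nt), but each sequence can be captured with its own efficiency in library preparation.

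Names past 2-fold whose interval did not include 1 were called lower or higher. Of the 22 members 5 were called lower and 0 higher, where 15.6% of all names were called lower and 11.1% higher. Over all names 41.6% of the calls were higher, or 70.1% with upper-quartile scaling, under which all log2 ratios are larger by 0.74. The called members were miR-19a, the star strands miR-92a-1*, miR-19b-1* and miR-20a*, and mir-17*. Without the fold limit, 13 members had an interval wholly below 1 and 0 had one above it, where 23.9% and 19.9% of all names did, but with upper-quartile scaling 6 members lay below 1 and 4 above it (miR-17, miR-17*, miR-18a and miR-19b). The 13 include all 12 members that reach 1000 reads over the pair of libraries, and among the 169 names of that abundance 49.7% had an interval below 1. The 5 members called lower are also among these 12, and of the 169 names 21.9% were called lower and 11.2% higher. By fold alone, 8 members were lower and 1 higher (29.4% and 25.3% of all names), and with a 1.5-fold limit 10 were lower (19.5%). Those added by fold alone had few reads: mir-20a* (3 and 8), miR-19b-2* and mir-18b* (0 and 1 each), and miR-363, the higher one (1 and 0). With fold and interval, upper-quartile scaling left 2 members called lower in place of 5 (10.2% of all names). Scaling by total counts, by miR-425 or by names with at least 100 reads called 7, adding miR-92a and miR-19a*. Of all names these scalings called 17.7%, 17.5% and 17.3% lower.

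Because scaling moves all names together, the members were also set against the median of all names. The median log2 ratio was -0.74 over the 17 members with at least 10 reads and -0.05 over the 579 names with at least 10 reads that had reads in both libraries. The difference, -0.69, is the same under each scaling tried. Each of the 17 members lay below the median of all names, with miR-17 only 0.02 below it on the log2 scale and miR-92a-1* lower by 2.75. The remaining 5 members had fewer than 10 reads and belong to miR-106a-363. Among the 17, the intervals of miR-17, miR-18b, mir-19a*, mir-20a* and mir-19b-2* held the median of all names (ratio 0.963).

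**Figure D2:**
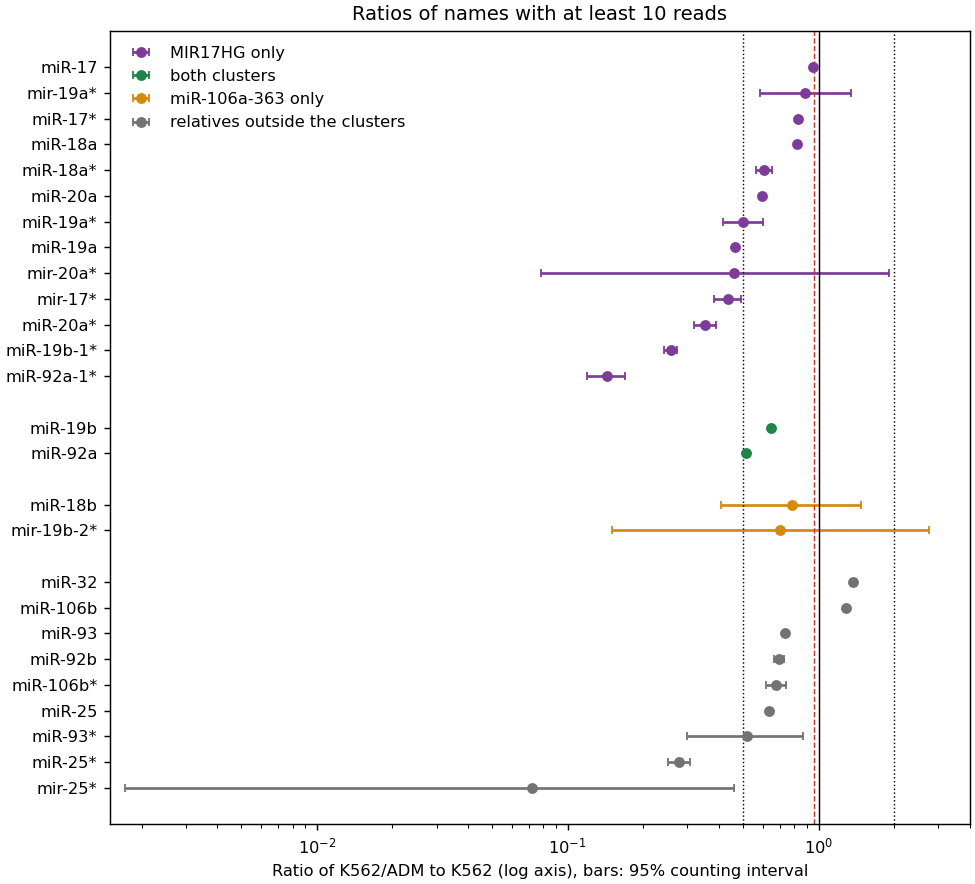
Ratio of K562/ADM to K562 (x axis, log scale) with 95% counting intervals for members and for relatives in other clusters with at least 10 reads. The solid line marks 1, the dotted lines 2-fold and the dashed line the median of all names (0.963), and every member drawn has its point left of the dashed line, from 0.952 for miR-17 to 0.143 for miR-92a-1*, while miR-32 and miR-106b lie right of 1.

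The guide strands of the MIR17HG cluster did not keep their proportions. Of those compared, miR-17, miR-18a, miR-19a and miR-20a come from this transcript alone, while reads of miR-92a and miR-19b can also come from chromosome X. Such comparisons within a library do not depend on scaling. There were 361 reads of miR-20a per 100 reads of miR-17 in K562/ADM and 574 in K562, although both have the same seed, which is a ratio of these proportions of 0.628 (0.617 to 0.639). The proportion of miR-18a to miR-17 had a ratio of 0.861 (0.845 to 0.877), that of miR-92a to miR-17 0.539 (0.529 to 0.550), and that of miR-19a to miR-17 0.490 (0.476 to 0.503). Within the miR-19 family, miR-19a against miR-19b gave 0.719 (0.70 to 0.739).

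Summed by family, guide and star names together, the miR-17 family had 42.3% of the member reads in K562/ADM and 41.6% in K562. The miR-18 family had 30.8% and 24.7%, the miR-19 family 10.5% and 12.6%, and the miR-92a family 16.4% and 21.1%. Relative to the miR-17 family, the miR-18 family stood 1.23 times as high in K562/ADM as in K562 (1.21 to 1.24). The miR-19 family stood at 0.822 (0.810 to 0.834) and the miR-92a family at 0.765 (0.756 to 0.775). Star strands carry other seeds, and with guide strands alone the values were 1.26, 0.884 and 0.790.

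The names made by the miR-106a-363 cluster alone were near the limit of detection in both libraries. They took 0.000406% of the reads in K562/ADM (0.000270 to 0.000587) and 0.000560% in K562 (0.000405 to 0.000754). MiR-18b had 18 reads in K562/ADM and 28 in K562, miR-106a 3 and 4, and miR-20b 2 and 2. MiR-363, the member with no near-identical partner on chromosome 13, had 1 read in K562/ADM and 0 in K562. A count of 0 allows up to 3 reads as a one-sided 95% limit, unlike the intervals given elsewhere, which are two-sided. MiR-19b-2* and mir-18b* each had 0 reads and 1 read, and mir-19b-2* had 4 and 7.

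The reads of the chromosome X names were a small share of those of their chromosome 13 partners. MiR-106a reads came to 0.0115% of miR-17 reads in K562/ADM and 0.0119% in K562. For miR-18b and miR-18a the shares were 0.0181% and 0.0188%, a ratio of 0.961 (0.531 to 1.74). For miR-20b and miR-20a, whose sequences differ at more positions, they were 0.00213% and 0.00104%. How many of these reads were reads of the chromosome 13 partner was not tested. The summed ratio of the miR-106a-363 names was 0.797 (0.477 to 1.31), and relative to the MIR17HG names it was 1.14 (0.711 to 1.84), so a difference between the clusters was not detectable at this depth.

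The star strands were examined next. They are shown with their seeds in capitals because they carried the largest differences of the cluster, in the order in which they lie on the transcript.
miR-17*: aCUGCAGUgaaggcacuuguag
miR-18a*: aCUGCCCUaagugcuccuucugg
miR-19a*: aGUUUUGCauaguugcacuaca
miR-20a*: aCUGCAUUaugagcacuuaaag
miR-19b-1*: aGUUUUGCagguuugcauccagc
miR-92a-1*: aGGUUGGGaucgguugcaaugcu

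MiR-17* was close in abundance to its guide strand, with 18052 reads in K562/ADM and 26734 in K562, which is 69.4% and 79.9% of the miR-17 reads. Its ratio was 0.827 (0.811 to 0.843). MiR-18a* had 1166 and 2357 reads and a ratio of 0.606 (0.564 to 0.650). Neither was called.

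MiR-19a* had 167 reads in K562/ADM and 409 in K562, a ratio of 0.50 (0.415 to 0.60) that was not called because the fold fell just short of the limit. MiR-20a* had 485 and 1684 reads and was called lower at 0.353 (0.318 to 0.390). MiR-19b-1* and miR-92a-1* had the lowest ratios of the star strands shown. Both are from the 5' arm, as is miR-19a*, whose ratio was above that of the 3' arm strand miR-20a*. MiR-19b-1* had 1383 and 6577 reads and a ratio of 0.258 (0.243 to 0.273). MiR-92a-1* had 148 reads in K562/ADM and 1266 in K562, with a ratio of 0.143 (0.120 to 0.170).

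The ratios of the miR-spelled star strands thus declined in the order of the hairpins on the transcript, from miR-17* at the 5' end to miR-92a-1* at the 3' end. The names spelled mir do not follow this order, since mir-17*, of the first hairpin, had a ratio of 0.434 and mir-19a* one of 0.887. Over the 6 miR-spelled star strands, Spearman's rho between the distance from miR-17 and the log2 ratio was -1 and Pearson's r was -0.98. Over the 6 guide strands rho was -0.60 and r was -0.71, with miR-19a (0.466) and miR-20a (0.598) both below miR-19b (0.648), which lies further along. These are descriptions of 6 strands from 1 transcript in the same libraries, noticed after the values were seen, and scaling does not alter them. The intervals of miR-18a* and miR-19a* overlapped, while those of the other neighbouring star strands did not. Such a decline is not particular to this transcript, since the paralog cluster miR-106b-25, described below, showed it as well.

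**Figure D3:**
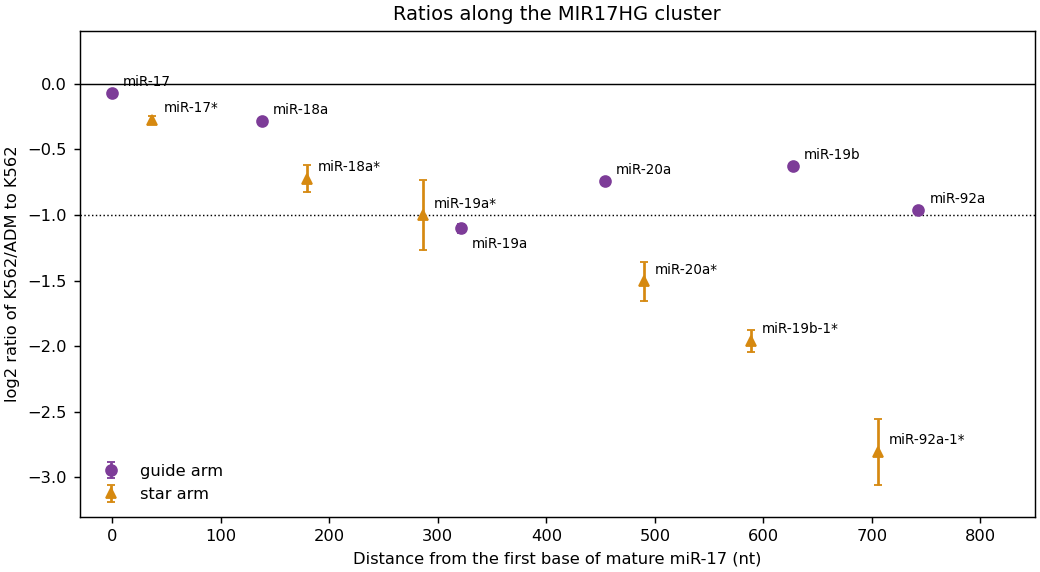
Distance in nt from the first base of mature miR-17 (x axis) and log2 of the K562/ADM over K562 ratio (y axis) for guide (circles) and star (triangles) strands, with 95% counting intervals. The miR-spelled star strands drawn go down from left to right, from a ratio of 0.827 for miR-17* to 0.143 for miR-92a-1*, and the guide strands stay between 0.952 and 0.466.

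For each hairpin the star reads were divided by the guide reads of the same library, which removes scaling. The miR-92a-1* reads were 0.276% of miR-92a reads in K562/ADM and 0.988% in K562, a ratio of 0.279 (0.235 to 0.331). For miR-19b-1* and miR-19b the values were 6.25% and 15.7%, a ratio of 0.397 (0.374 to 0.422). The guide reads of these pairs may include chromosome X copies, whose share was not tested. MiR-20a* against miR-20a gave 0.590 (0.533 to 0.653), miR-18a* against miR-18a 0.739 (0.689 to 0.793) and miR-17* against miR-17 0.869 (0.847 to 0.891).

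MiR-19a* against miR-19a was the exception, with 1.55% in K562/ADM and 1.45% in K562 and an interval that holds 1 (ratio 1.07, 0.895 to 1.29). The interval was therefore below 1 in 5 of the 6 pairs, where this held for 43.8% of the 64 hairpins in the table with at least 50 reads on each strand over both libraries. The median log2 ratio of star to guide was -0.60 for the 6 pairs and -0.25 for the 64. Summed over all members, the star to guide ratio was 1.03 (1.01 to 1.04), with miR-17* holding 18052 of the 21401 star reads in K562/ADM and 26734 of 39028 in K562. Without the miR-17 hairpin it was 0.525 (0.505 to 0.545).

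**Figure D4:**
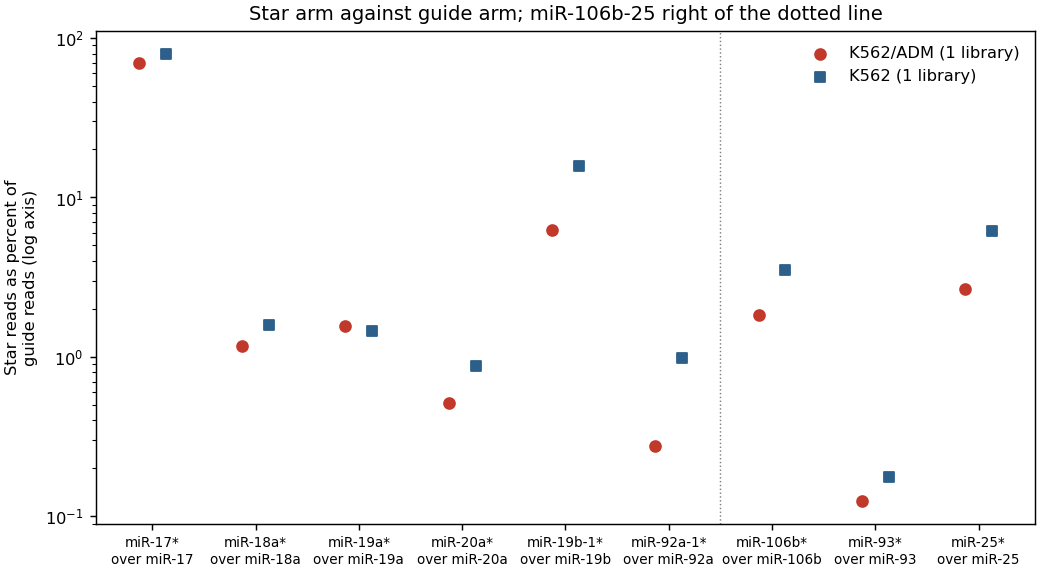
Star reads as a percent of guide reads (y axis, log scale) for each hairpin in K562/ADM (circles) and K562 (squares), 1 library each, with the miR-106b-25 hairpins right of the dotted line. K562/ADM lies lower for each hairpin but miR-19a, where it is 1.55% against 1.45%, and for miR-93 the interval of the ratio holds 1 (0.427 to 1.16).

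Of the names spelled mir, mir-17* had 348 reads in K562/ADM and 983 in K562 and was called lower at 0.434 (0.383 to 0.490). This is a lower ratio than that of miR-17*, and mir-17* against miR-17* gave 0.524 (0.463 to 0.593). Mir-19a* had 42 and 58 reads and a ratio of 0.887 (0.582 to 1.34). Against its guide strand miR-19a it stood higher in K562/ADM, at 1.90 (1.28 to 2.83), whereas mir-17* against miR-17 gave 0.455 (0.403 to 0.515). Mir-20a* had 3 and 8 reads, and neither it nor mir-19a* was called.

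The third paralog cluster, miR-106b-25, lies in introns of MCM7, a gene of the DNA replication helicase, on chromosome 7, and makes miRs with the miR-17 and miR-92a seeds. The sequences are shown for comparison with miR-17 and miR-92a.
miR-106b: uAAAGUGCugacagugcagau
miR-93: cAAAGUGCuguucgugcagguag
miR-25: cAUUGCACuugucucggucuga

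MiR-106b had 39266 reads in K562/ADM and 37356 in K562, a ratio of 1.29 (1.27 to 1.31). Relative to miR-17, which has the same seed, it stood at 1.35 (1.32 to 1.38). MiR-93 had 17712 and 29414 reads and a ratio of 0.737 (0.724 to 0.751), and miR-25 had 17006 and 32687 and a ratio of 0.637 (0.625 to 0.649). The MIR17HG and miR-106a-363 reads together, relative to the 7 names of miR-106b-25, stood at 0.732 in K562/ADM against K562 (0.724 to 0.739). Among its star strands miR-106b* had a ratio of 0.678 (0.618 to 0.743), and miR-93*, with few reads, 0.518 (0.30 to 0.868). MiR-25* had 455 and 2006 reads and a ratio of 0.278 (0.25 to 0.308), the lowest of these 3. The hairpins lie on the minus strand in the order miR-106b, miR-93 and miR-25. Both the guide ratios and the ratios of these 3 star strands thus declined in hairpin order, as the MIR17HG star strands did. The interval of miR-93* overlapped those of miR-106b* and miR-25*. The lowest of the cluster was mir-25*, with 1 and 17 reads and a ratio of 0.072 (0.00172 to 0.460), and miR-25* and mir-25* were the 2 of the 7 names called lower. MiR-25* against miR-25 gave 0.436 (0.393 to 0.483) and miR-106b* against miR-106b 0.526 (0.480 to 0.577). For miR-93* against miR-93 it was 0.703, with an interval that holds 1 (0.427 to 1.16).

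Of the other miRs with these seeds, miR-32 had 19968 reads in K562/ADM and 17761 in K562, a ratio of 1.38 (1.35 to 1.40), and miR-92b had 2879 and 5048, a ratio of 0.698 (0.667 to 0.731). MiR-519d had 1 read and 0 reads. Summed with these relatives, the guide reads with the seed AAAGUGC had a ratio of 0.740 (0.736 to 0.745), of which the members made up 67.8% in K562/ADM and 77.2% in K562. Those with the seed AUUGCAC had a ratio of 0.624 (0.619 to 0.629), of which the members made up 57.4% and 69.8%. MiR-526b-3p, which has the seed AAAGUGC, and miR-367-3p, which has AUUGCAC, were not among the names summed.

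By likeness of response, taken as the absolute difference in log2 ratio from the summed members over these 2 libraries, the nearest names with at least 1000 reads outside these families were miR-941, miR-576-3p and miR-3180-3p. They had ratios of 0.638, 0.688 and 0.614. MiR-425, the reference of the study's PCR, had 28536 reads in K562/ADM and 32165 in K562, a ratio of 1.09 (1.07 to 1.10).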

How the data were processed

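Small RNA was sequenced on an Illumina Genome Analyzer IIx. The authors grouped identical reads, left out sequences seen once, mapped the rest with Bowtie in miRanalyzer to miRBase 16 and divided the counts by DESeq size factors. CASAVA 1.7.0 and hg18 are also named in the submitters' processing notes. The deposited values are therefore a normalized signal, reads per miR name over the size factor. The authors' fold changes and p-values, also in the table, were not used.

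Divided by the smallest nonzero entry of its column, 100% of values came out whole within 0.001, which gave back the read counts. Names with exactly 1 read (124 in K562/ADM and 100 in K562) remained although sequences seen once were described as left out, and how they arose was not tested. The assignment of reads matching several names is not stated. Size factors were computed again as medians of ratios (0.904 for K562/ADM and 1.11 for K562). Ratios carry exact 95% binomial intervals (Clopper-Pearson), and ratios of proportions have Woolf intervals, or exact conditional ones where a count was under 10. With 1 library per cell line no count model was fitted. The members and lists were chosen with earlier results of these data known. All member names are given, with a chosen list of relatives sharing their seeds, the PCR reference and the 3 names nearest in ratio. Sequences came from RefSeq (GRCh38.p14 table) and were matched to GRCh37, with GENCODE annotation. Intervals were tried on data simulated with counting error alone, the error they assume, so this cannot show how they cover differences between replicate libraries. Alternatives were total-count, TMM, upper-quartile and miR-425 scaling, the median of ratios over names with at least 100 reads in each library, other call limits and read minimums, and guide strands alone. TMM and upper-quartile factors came from edgeR 4.0.16 in R 4.3.3. The rest was done in Python 3.11.15 with scipy 1.17.1, numpy 2.4.6 and pandas 2.3.3, and plots were drawn in matplotlib 3.10.9.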

Additional observations from a re-analysis of the deposited data

How the results depend on the processing

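No paired analysis was possible because each cell line has 1 library, and for the same reason no library could be left out. TMM scaling kept all values within their intervals. Upper-quartile scaling raised every log2 ratio by 0.74, and under it the median log2 ratio of the members was 0.00019, the summed ratio was 1.17 for MIR17HG and 1.33 for miR-106a-363, 6 members in place of 13 had intervals below 1, 4 in place of 0 had them above 1 and 2 in place of 5 were called lower. The summed MIR17HG ratio was 0.634 under total counts, 0.641 with miR-425 and 0.650 with names of at least 100 reads. Under each of these scalings 7 members were called lower, with miR-92a and miR-19a* added. Calls by fold alone gave 8 lower and 1 higher, where 29.4% and 25.3% of all names were so called, and a 1.5-fold limit gave 10 lower, where it gave 19.5%. The names added by fold alone had at most 8 reads in either library. With guide strands alone, the miR-18, miR-19 and miR-92a families relative to the miR-17 family stood at 1.26, 0.884 and 0.790, and the members relative to miR-106b-25 at 0.718. With all strands of the MIR17HG names alone, the last value was 0.778. The star to guide ratio was 1.12 without the copies of miR-19b and miR-92a and 0.525 without the miR-17 hairpin, and 1.02 with the names spelled mir added, an alternative chosen after seeing the data. The depth limits what can be said of miR-106a-363, whose names had at most 28 reads in either library.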
